A study of Homo sapiens with 33 samples.

Results

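The MS2 pool is a set of 105 short synthetic RNA designs, called tiles here, of the 3358 tiles in the 5 pools of the series, and its recovery through the HA tag of the MS2 coat protein is described below. All 105 tiles were taken, with the reads of the 50 barcodes of each tile added together. The pool was delivered by transfection to HEK293T, an embryonic kidney line of human origin that is widely used because it takes up DNA readily. The HA group held 3 libraries of cDNA made from RNA that an HA antibody had recovered, and the Input group held 3 libraries that carry the label Input in place of an antibody. Both groups came from cells that overexpressed FLAG-HA-MCP, the coat protein with 2 epitope tags, and both were collected 48 hours after transfection and fixed in 0.1% formaldehyde for 10 minutes. The Input therefore carried the tagged protein too. A further group of 3 libraries from the same kind of cells, recovered through the FLAG tag, shared the fit. No precipitation from cells without MCP was among the MS2 libraries, so what any HA precipitation would recover was not measured here. The libraries hold amplicons of the pool alone, so the cell line could not be checked against marker genes.

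MCP is the capsid protein of the RNA bacteriophage MS2. As a dimer it grips one RNA hairpin of the phage genome, the operator, which overlaps the start of the replicase gene, and by doing so it shuts off translation of the replicase and helps the genome to be packaged. Because the pair binds tightly, copies of the hairpin are placed in other RNAs to track them or to pull them down, and a pool built on MS2 can serve as a test of an assay for RNA and protein contacts. In a pooled assay of this kind, a tile bound by the protein takes a larger share of the reads in the immunoprecipitate than in Input, and a tile left behind takes a smaller one. Tiles in the files are named ms2-4x and a number from 1 to 105. The labels do not say what 4x stands for or what the numbers count, and tile sequences were not used here.

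The 6 libraries compared held 4104695 to 6843839 reads, with HA libraries deeper than Input libraries. Levels are given as CPM, a tile's reads divided by those of its library and put on the usual CPM base, after scaling by trimmed mean of M values (TMM), which sets the typical tile to no change. Tile ms2-4x:1 had 0 reads in every library, which allows a level of up to 0.438 to 0.544 unscaled CPM in the HA libraries and 0.615 to 0.731 in Input (3 reads per library). The other 104 tiles were tested. Nothing in the labels says that libraries of a group came from separate cultures, so the tests measure the spread between libraries, which may be technical.

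Recovery through HA divided the pool. The 8 tiles that dominate Input, ms2-4x:2 to ms2-4x:9, all rose, and the largest falls were among tiles of high number. With edgeR's quasi-likelihood test 24 tiles were higher in HA than in Input (23.1% of those tested), 32 were lower (30.8%) and 48 were not called, at an adjusted p under 0.05, so that 56 in all differed (53.8%). The 2 directions differed in size: the 24 higher tiles ranged from 0.34 to 0.77 on the log2 scale (median 0.55), and the 32 lower tiles from -1.45 to -0.41 (median -1.12). No tile was 2-fold higher, and 24 of the 32 lower tiles were at least 2-fold lower (23.1% of those tested). The 3 HA libraries lay wholly above or below the 3 Input libraries for 73 tiles (70.2%), among them all 56 calls. Of the 73, 35 had HA above (33.7%) and 38 had HA below (36.5%). In the called tile ms2-4x:25 the gap was minimal, with HA replicate 1 and Input replicate 1 both at 2875 CPM after rounding. Since reads are shares of a pool, each direction is relative to the other tiles. Scaled by library size alone, the median of the tested tiles was -0.29, 7 tiles were called higher and 43 lower, and all 56 tiles kept their sign.

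The 7 tiles called higher under both scalings were ms2-4x:2 to ms2-4x:8, which with ms2-4x:9 were the 8 most read tiles of Input. For ms2-4x:8 the HA libraries read 68052, 62235 and 66554 CPM and the Input libraries 39564, 36233 and 39699.8 CPM. Every HA library thus stood far above every Input library, and the gap was the widest of any higher tile, at 0.77 ± 0.07 (log2 fold change ± SE, n = 3 against 3, 1.70-fold, adjusted p = 4.04e-10). Tile ms2-4x:4 gave 120859, 112739 and 107953 CPM in HA against 72747, 69606 and 75603 CPM in Input, or 0.65 ± 0.06 (adjusted p = 4.04e-10). Tile ms2-4x:5 gave 112163, 106407 and 94445 CPM against 66722, 65648 and 67939 CPM, or 0.64 ± 0.06 (adjusted p = 1.66e-09). In both tiles HA replicate 3 was the lowest of the HA libraries and still lay above all of Input.

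Tile ms2-4x:7 stood at 61038, 52096 and 51155 CPM in HA and 36189.6, 34326 and 35321 CPM in Input (0.63 ± 0.08, adjusted p = 1.08e-07). For ms2-4x:3 the HA levels were 138982, 143390.0 and 125560.0 CPM and the Input levels 88783, 88274 and 95076 CPM (0.58 ± 0.06, adjusted p = 1.66e-09). The most abundant tile of all, ms2-4x:2, went from 94485, 92712 and 98848 CPM in Input to 141791, 150154 and 127835 CPM in HA (0.55 ± 0.06, adjusted p = 7.04e-09). These 3 tiles showed no overlap between the groups, although HA libraries differed among themselves by more than Input libraries did. Of the 8, ms2-4x:6 had the closest HA libraries, at 32970.1, 32733 and 33153 CPM against 22797, 21191 and 22684 CPM (0.57 ± 0.08, adjusted p = 1.52e-06). The smallest rise of the 8 was that of ms2-4x:9, at 28595, 31062 and 27768 CPM against 23203, 20819 and 21265 CPM (0.42 ± 0.09, adjusted p = 0.000251), and this call alone of the 8 was lost with library size scaling (adjusted p = 0.214).

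Together the 8 tiles took 64.0, 63.1 and 61.3% of the reads in the 3 HA libraries and 50.39, 50.04 and 51.13% in the 3 Input libraries. The share was 62.8% ± 1.39 against 50.5% ± 0.558 (SD, n = 3 each), a gap of 12.3 percentage points, and the libraries did not overlap (2-sided exact permutation p = 0.1, the smallest that 3 against 3 can give). The pool was accordingly less even after precipitation. Its effective number of tiles, the exponential of the Shannon entropy of tile shares, was 32.8, 32.8 and 35.3 in HA and 49.4, 49.6 and 48.1 in Input (exact permutation p = 0.1, again the smallest possible).

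Beyond these 8 tiles, 16 others rose. The strongest was ms2-4x:42, with 6869, 8275 and 6643 CPM in the HA libraries and 4540.1, 4430.4 and 5097 CPM in the Input libraries (0.63 ± 0.15, adjusted p = 0.00123). Its neighbour ms2-4x:41 read 5088, 5440.0 and 6001 CPM against 4375, 3262 and 3214 CPM (0.61 ± 0.17, adjusted p = 0.00342). Input replicate 1 of ms2-4x:41 stood apart from the other Input libraries and came nearest to the HA range, without reaching it. Tile ms2-4x:89 read 8349, 10206 and 9398 CPM in HA and 6112, 5332 and 7058 CPM in Input (0.60 ± 0.15, adjusted p = 0.00153), and was the only tile numbered 68 or above to be called higher.

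Tile ms2-4x:57 gave 8229, 10429 and 11485 CPM against 6423, 6806 and 6888 CPM (0.58 ± 0.16, adjusted p = 0.00259), with a wide range in HA and a narrow one in Input. Tile ms2-4x:12 gave 8798, 10688 and 10448 CPM against 6975, 6691 and 6767 CPM (0.55 ± 0.14, adjusted p = 0.00201). All 5 of these calls were lost with library size scaling, where adjusted p was 0.0693 to 0.153. The smallest rises that were called belonged to ms2-4x:26 (0.34 ± 0.14, adjusted p = 0.0424) and ms2-4x:67 (0.37 ± 0.15, adjusted p = 0.0351). Their HA libraries stood at 6601, 6383 and 6215 CPM for ms2-4x:26, against 4829, 4969 and 5374 CPM in Input. Both calls were lost when any 1 of the 6 libraries was left out, where adjusted p reached 0.127 for ms2-4x:26 and 0.122 for ms2-4x:67, and with library size scaling (0.828 and 0.698).

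The falls were larger. Tile ms2-4x:93 dropped from 5519.5, 5169.9 and 4793 CPM in Input to 1983, 1651 and 2027 CPM in HA, at -1.45 ± 0.24 (2.74-fold lower, adjusted p = 2.19e-05). Tile ms2-4x:88 went from 5247, 5733 and 5869.5 CPM to 2419.6, 1527 and 2231 CPM, at -1.45 ± 0.28 (2.73-fold lower, adjusted p = 0.000157). In these tiles even the highest HA library was under 0.5 of the lowest Input library. Tile ms2-4x:79 followed, with 4194, 4715 and 4595 CPM in Input and 2099.9, 1401 and 1721 CPM in HA (-1.37 ± 0.27, adjusted p = 0.000171). The most abundant of the 32 lower tiles, ms2-4x:90, read 11925, 12842 and 12272 CPM in Input and 5826, 4595 and 4253 CPM in HA (-1.34 ± 0.32, adjusted p = 0.00573). HA replicate 1 was the highest of the HA libraries in ms2-4x:79, ms2-4x:88 and ms2-4x:90.

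Tile ms2-4x:100, scarcer in Input at 1345, 1262 and 1313 CPM, read 729, 405 and 468 CPM in HA (-1.29 ± 0.34, adjusted p = 0.00213). Tile ms2-4x:85 read 2322, 2734 and 2726 CPM in Input and 1383, 944 and 990.1 CPM in HA (-1.23 ± 0.25, adjusted p = 0.000189). Tile ms2-4x:68 read 3309, 3489 and 2561 CPM and 1362, 1454 and 1187 CPM (-1.23 ± 0.24, adjusted p = 0.000171). The HA libraries of ms2-4x:68 were close together, whereas those of ms2-4x:100 and ms2-4x:85 had replicate 1 well above the other two. For ms2-4x:76 the levels were 3689, 3338 and 4149 CPM in Input and 1366, 1766 and 1755 CPM in HA (-1.19 ± 0.26, adjusted p = 0.000365). For ms2-4x:104 they were 3944, 5603 and 5160.1 CPM and 2553, 1777 and 2126 CPM (-1.19 ± 0.24, adjusted p = 0.000181), with Input replicate 1 lowest of its group and HA replicate 1 highest of its own.

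The remaining 3 of the 12 lowest tiles had large errors. Tile ms2-4x:102 read 3003, 1188 and 1594 CPM in HA against 4392, 5657 and 4268 CPM in Input (-1.31 ± 0.48, adjusted p = 0.0441), and its HA replicate 1 was more than 2-fold above its replicate 2. Tile ms2-4x:87 read 1579, 1166 and 1845 CPM against 3806, 3543 and 3359.8 CPM (-1.22 ± 0.43, adjusted p = 0.0374). The FLAG libraries shared the fit, so their spread enters this error too, and they read 3108, 942 and 1025 CPM for ms2-4x:87. Tile ms2-4x:95 was the scarcest tested tile, at 205, 102 and 239.5 CPM against 337, 488 and 467 CPM (-1.24 ± 0.52, adjusted p = 0.0441), or 532 to 1584 reads in HA and 1566 to 2777 in Input. Its call was lost whenever 1 of the 6 libraries was left out (adjusted p 0.0609 to 0.184), and also with RLE scaling (0.0519), DESeq2 (0.0883), no robust estimation (0.0535) or without the 8 most read tiles (0.0706). That of ms2-4x:87 was lost without Input replicate 1, 2 or 3 or HA replicate 1 or 2 (adjusted p up to 0.112), and that of ms2-4x:102 without replicate 2 or 3 of either group (up to 0.126) and with DESeq2 (0.0516).

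Of the 48 tiles without a call, log2 fold changes ranged from -0.43 to 0.45. In 17 of them the HA and Input libraries did not overlap, 11 with HA above and 6 with HA below. Tile ms2-4x:83 was the highest of the 48, with 3142, 4470.1 and 3955 CPM in HA and 2832, 2547 and 3081 CPM in Input (0.45 ± 0.26, adjusted p = 0.141). With library size scaling 22 of the 48 changed sign, so the direction of a tile without a call is not described here.

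Read in order of their numbers, some tiles formed runs called in the same direction, while many calls had no neighbour called the same way. The longest run of calls in 1 direction was the first, 12 tiles higher from ms2-4x:2 to ms2-4x:13, where ms2-4x:13 was 0.46 ± 0.16 (adjusted p = 0.0159, 7613, 9862 and 8345 CPM against 6745, 5883 and 6097 CPM). The end of this run was less firm than its start. Tile ms2-4x:13 was no longer called when Input replicate 2 or 3 or HA replicate 2 was left out (adjusted p up to 0.115). Because ms2-4x:10 was also lost without replicate 2 of either group (adjusted p 0.0507 and 0.0523), the run then ended at ms2-4x:9, and with library size scaling at ms2-4x:8. Without Input replicate 1 it ended at ms2-4x:10, where ms2-4x:11 was no longer called. The other run of at least 3 higher tiles was ms2-4x:41 to ms2-4x:43, ending at 0.39 ± 0.15 (adjusted p = 0.0314, 6256, 6033 and 6329 CPM against 5374, 4016 and 4769 CPM). The call of ms2-4x:43, and with it the run, was lost when Input replicate 2 or 3 or any HA library was left out (adjusted p up to 0.181) and with library size scaling (0.611). A run of 3 lower tiles lay at ms2-4x:23 to ms2-4x:25, with ms2-4x:23 at -0.77 ± 0.24 (adjusted p = 0.00696) and ms2-4x:25 at -0.76 ± 0.27 (adjusted p = 0.0176). Leaving out HA replicate 2 ended the call of ms2-4x:23 (adjusted p = 0.0541). The fall of ms2-4x:25 was not shared by all libraries: HA replicates 1, 2 and 3 read 2875, 1395 and 1674 CPM and Input replicates 2875, 3385 and 3806 CPM, so that HA replicate 1 equalled Input replicate 1 to the nearest CPM. Its call was lost without replicate 2 or 3 of either group (adjusted p up to 0.137).

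A further 3 runs of lower tiles stood at high numbers: 5 tiles from ms2-4x:84 to ms2-4x:88, 4 from ms2-4x:90 to ms2-4x:93 and 5 from ms2-4x:100 to ms2-4x:104. The first began at -1.10 ± 0.25 for ms2-4x:84 (adjusted p = 0.000631), with 2523, 2371 and 2199 CPM in HA and 5109, 4865 and 5184 CPM in Input. Means over these runs were -1.22, -1.24 and -1.14 on the log2 scale. Beside ms2-4x:87 and ms2-4x:102, whose losses are given above, ms2-4x:103 lost its call without HA replicate 2 (adjusted p = 0.0575). Only ms2-4x:89 parts the first 2 of these runs, and the change from tile to tile there was the largest in the pool, from -1.45 at ms2-4x:88 up to 0.60 at ms2-4x:89 and down to -1.34 at ms2-4x:90. The difference between neighbouring tiles was not itself tested. Of windows of 5 consecutive numbers, that of ms2-4x:84 to ms2-4x:88 had the lowest mean, with an SD of 0.22 over the 3 ratios of same-numbered libraries, followed by ms2-4x:100 to ms2-4x:104 with an SD of 0.45.

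Counts by blocks of 10 numbers show where the calls lie. Tiles 10 to 19 held 5 higher and 0 lower calls. Tiles 20 to 29 held 1 higher and 3 lower, 30 to 39 held 3 higher and 1 lower, and 40 to 49 held 4 higher and 1 lower. Tiles 50 to 59 and 60 to 69 each held 1 higher and 2 lower. Tiles 70 to 79 held 0 higher and 5 lower, 80 to 89 held 1 higher and 7 lower, 90 to 99 held 0 higher and 6 lower, and the 6 tiles from 100 to 105 held 5 lower. Calls in the whole pool were 23.1% higher and 30.8% lower. The high-numbered end was not uniform, however. Among tiles 68 to 105, 17 of 37 neighbouring pairs differed by at least 1 on the log2 scale, against 4 of 57 pairs among tiles 10 to 67 and 0 of 7 among tiles 2 to 9. The median absolute difference between neighbours was 0.98 among tiles 68 to 105 and 0.27 among tiles 10 to 67. Over all pairs of tiles, adjacent or not, the medians were 0.45 and 0.37. The border at 68 comes from earlier results on these data and from no label. Tiles 68 to 105 took 9.34, 8.26 and 9.19% of the reads in HA and 17.5, 18.0 and 17.8% in Input.

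Each tile carries 50 barcodes, which share its library and its tile and so are no independent replicates, but show whether a tile's change rests on a few of them. Barcodes with at least 30 reads over the 6 libraries were compared by the ratio of mean CPM in HA to mean CPM in Input. Of the 24 higher tiles, 6 had every barcode higher, namely ms2-4x:2 to ms2-4x:5 together with ms2-4x:7 and ms2-4x:8. Quartiles of the barcode log2 ratios were 0.57 and 0.89 for ms2-4x:8 and 0.45 and 0.65 for ms2-4x:2. Barcodes of less read tiles spread more widely: in ms2-4x:42, 40 of 50 were higher (quartiles 0.11 and 1.08), in ms2-4x:41 43, in ms2-4x:57 44 and in ms2-4x:26 35. Across the higher tiles 68% to 100% of barcodes were higher, with a median of 82.0%.

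In each lower tile most barcodes were lower in HA. Every barcode was lower in only 1 of the 32 tiles, and at least 90% were lower in 10. All 50 barcodes of ms2-4x:90 were lower in HA, as were 49 of 50 in ms2-4x:51 and in ms2-4x:104, and 47 of 50 in ms2-4x:79 and ms2-4x:84 and likewise in ms2-4x:88 and ms2-4x:93. Over the 32 lower tiles 66.7% to 100% of barcodes were lower (median 86.9%). The median barcode lay on the side of its tile in all 56 called tiles and in 42 of the 48 uncalled tiles. In the uncalled tiles a median of 60% of barcodes lay on that side. A tile's value is the sum of its barcodes, so such agreement is partly built in. The spread between barcodes was wider in lower tiles: the median width between quartiles was 1.55 on the log2 scale in lower tiles, 1.06 in uncalled tiles and 0.78 in higher tiles. These widths were not compared at like depth. Median reads per barcode in HA replicates 1, 2 and 3 were 159.5, 3.5 and 189.5 in lower tiles. They were 331, 343.5 and 473.5 in uncalled tiles and 1026, 1191.5 and 1392.5 in higher tiles. At the lowest end of the range, 22 of 33 barcodes of ms2-4x:95 were lower, and its most read barcode held 34.6% of its reads in HA replicate 2. Without the barcode of most reads in each tile, 23 tiles were called higher and 32 lower.

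Many barcodes of the lower tiles were not read at all in HA. The share with 0 reads was 28.6, 38.5 and 21.4% in HA replicates 1, 2 and 3 and 11.4, 7.56 and 7.12% in Input replicates, of 1600 barcodes. All 3 HA libraries thus lay above all 3 Input libraries, and HA replicate 2 was the highest. In the 48 uncalled tiles the shares were 14.9, 17.6 and 7.88% in HA and 10.3, 8 and 6.17% in Input, where the groups overlapped. In the 24 higher tiles they were 1.25, 2.25 and 0.667% and 2.67, 1.67 and 0.583%. The classes were made from these same reads and differ in depth, so the shares are a description.

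Loss differed from library to library for the same barcode. Of 1310 barcodes of lower tiles that were read in all 3 Input libraries, 654 (49.9%) were read in all 3 HA libraries and 47 in none, so that the others were present in 1 or 2 HA libraries and missing from the rest. For higher tiles 1117 of 1150 (97.1%) were read in all 3, and for uncalled tiles 1585 of 2006 (79.0%). With 1 HA library set aside, the lower-tile share read in both others can only rise or stay the same. It was 60% of the 1310 without replicate 1, 67.4% (883) without replicate 2 and 55.4% without replicate 3. In the opposite sense, 93.3% of the lower-tile barcodes read in all 3 HA libraries were read in all 3 Input libraries. This share was similar in the other classes, at 96.4% for higher tiles and 92.2% for uncalled tiles. Barcodes unread in HA were not always rare in Input. Of 569 lower-tile barcodes with a mean of 300 to 600 Input reads, 23.4, 34.3 and 18.3% were unread in HA replicates 1, 2 and 3. The shares were 9.54, 11.5 and 3.58% of 922 uncalled-tile barcodes at that depth. Lower tiles also had the larger unread shares at 100 to 300 and at 600 to 1200 Input reads. The tiles were called on these same HA reads, so this difference is partly built in and is a description.

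Precision differed between the groups. The median SD of a tile's log2 CPM was 0.16 between HA libraries and 0.09 between Input libraries, and in the 32 lower tiles 0.27 and 0.10. Within the lower tiles HA replicate 1 was the highest HA library in 23 of 32 and HA replicate 2 the lowest in 21 of 32. Ratios taken between libraries of the same number put the median lower tile at -0.86, -1.28 and -1.24 for numbers 1, 2 and 3, and the median higher tile at 0.38, 0.65 and 0.46. Number 1 thus gave the smallest change in both classes. Of the 104 tested tiles, 81 had 1 sign in all 3 ratios. All 56 called tiles were among them, which their lack of overlap between HA and Input libraries already ensured. In ms2-4x:25 the ratio of number 1 was only -0.000101 on the log2 scale. Without HA replicate 2, which had the most unread barcodes, 17 tiles were called higher and 25 lower.

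Recovery was set beside abundance in Input. Over the 104 tested tiles Spearman's rho between Input level and log2 fold change was 0.38 and Pearson's r on log2 levels 0.37. Over the 96 tiles that remain without the 8 most read, rho was 0.23 and r 0.15. These are descriptions across tiles that share libraries, and Input enters both measures. Lower tiles had a median Input level of 3994 CPM (430.4 to 12346) beside 4234 CPM of uncalled tiles. Higher tiles had a median of 6538 CPM, with the 8 most read tiles among them.

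The FLAG antibody, which recognises the other tag of the same protein, was used on parallel samples. Both comparisons use the same 3 Input libraries, so their values are set side by side and only the direct difference was tested. Against Input, FLAG gave 0.77 ± 0.07 for ms2-4x:8, 0.48 ± 0.15 for ms2-4x:42, -1.43 ± 0.24 for ms2-4x:93 and -1.02 ± 0.31 for ms2-4x:90. The direct difference between the antibodies passed the threshold for 0 of 104 tiles in edgeR (0%) and for 0 in DESeq2. Before adjustment, edgeR's p was under 0.05 for 1 tile. The differences ran from -0.51 to 0.61 on the log2 scale.

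The smallest p belonged to ms2-4x:13, where HA exceeded FLAG by 0.35 ± 0.16 (unadjusted p = 0.0369 and adjusted p = 1.00 in edgeR), and FLAG against Input was 0.12 ± 0.16. Tile ms2-4x:51 was -0.34 ± 0.20 in HA minus FLAG, having read 3630.0, 3010.3 and 2353 CPM in HA and 6646, 6118 and 6510.4 CPM in Input (-1.10 ± 0.20 against Input, adjusted p = 7.42e-05 in edgeR). Tile ms2-4x:83 was 0.41 ± 0.26 higher in HA than in FLAG, a difference that did not pass. For the lower tiles the error of HA minus FLAG was large (SE 0.17 to 0.51), so moderate differences between the antibodies could have been missed. The fit did not pair libraries of the same number, so any variation that such libraries share counted as error in this test. Replicate 1 was the highest library of both HA and FLAG in some lower tiles, such as ms2-4x:90, and not in others, such as ms2-4x:76. Whether HA and FLAG libraries of the same number vary together was not tested.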

How the data were processed

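The MS2 table holds the raw read counts that the authors deposited, with tiles and barcodes as lines and libraries as columns. Per the file headers and the values these are whole numbers, not normalized. Per the labels' protocols, RNA was released from cross-links with Proteinase K and amplicons were read from a single end. The program that assigned reads to barcodes is not given in the sources used here. No molecular identifier is stated, so PCR reads may not be independent molecules and floors cover counting error only.

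Reads of a tile's 50 barcodes were added up. After filterByExpr and TMM scaling, edgeR 4.0.16 (R 4.3.3) fitted its robust quasi-likelihood model to the 9 MS2 libraries together, and p-values were adjusted by Benjamini-Hochberg over 104 tiles, with calls at an adjusted p under 0.05. The SE is derived from the F statistic (the size of the log2 fold change over its root). Barcode ratios used a pseudocount of 0.5 CPM, and SDs of log2 CPM a prior count of 2. Per-library shares were compared by exact permutation (scipy 1.17.1). The fit was tested on simulated data. Chi-square per degree of freedom between libraries of 1 group was 166 to 613, so none was counted as a copy of another.

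Named tiles were the 12 highest and 12 lowest calls whose groups do not overlap, the 8 most read in Input, the 2 smallest calls, both ends of each run of at least 3 calls, the 3 smallest p for HA against FLAG, and the tile left out by the filter. Tiles ms2-4x:10, ms2-4x:11 and ms2-4x:103 fall outside this rule and were named after their values were seen. Tiles, lists and tests were chosen with earlier results of these data known. Alternatives were RLE scaling, library size alone, other filters, DESeq2 1.42.0, a replicate block, the HA and Input libraries only, no robust estimation, each library left out, other sets of barcodes or tiles, 1 test per barcode, other windows and another barcode minimum. Barcode detection without each HA library was added after seeing the data.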

Additional observations from a re-analysis of the deposited data

How the results depend on the processing

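All 56 called tiles kept their direction under each of the 16 alternatives run per tile that tested them (1 leaves out the 8 most read tiles), and 32 of them (25 lower, 7 higher) stayed past the threshold each time; the cause of the other losses was not tested. Library size scaling moved the number called higher from 24 to 7. Without the 8 most read tiles of Input, 15 tiles were at least 2-fold different, against 24. With 1 test per barcode, 19 barcodes passed, of which 1 was lower, out of 5250 in the pool before the filter on low counts. The balance thus differed from the 24 higher and 32 lower tiles. Each such test had fewer reads behind it, and the cause of the difference was not tested. Leaving out 1 library at a time gave 16 to 21 tiles higher, 25 to 31 lower and 18 to 27 of at least 2-fold, and 0 for HA against FLAG each time. The labels do not say whether same-numbered HA and Input libraries share a lysate; correlations of their deviations across tiles were -0.18, -0.19 and 0.09, and they were not treated as pairs. A fit with the replicate block gave 23 tiles higher and 31 lower, 54 in all against 56, and ms2-4x:95 had an adjusted p of 0.0868 in it (0.0519 to 0.184 over the alternatives that ended its call). The fit on HA and Input libraries alone gave 34 higher and 35 lower. The share of lower-tile barcodes read in every HA library ranged from 55.4% to 67.4% with 1 HA library left out. Depth limits ms2-4x:95, with 532 reads in HA replicate 2, and single barcodes, which often had 0 reads.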
